A study of Mus musculus with 6 samples.

Results

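The BCL2 family sets the threshold at which a cell dies through its mitochondria, and 10 of its genes were followed here in natural killer (NK) cells. They were picked by symbol from the deposited raw count table, which lists 55291 gene names, and all 10 were found: 3 pro-survival genes (Bcl2, Mcl1, Bcl2l1), 2 effectors (Bax, Bak1) and 5 BH3-only genes (Bcl2l11, Bid, Bad, Bbc3, Pmaip1). The cells came from spleens of mice at steady state, with 3 wild-type mice (WT 1, 2 and 3) and 3 mice carrying HSF1-S303/7A (S303/7A 5, 6 and 7). In the latter, serines 303 and 307 of heat shock factor 1, the transcription factor of the heat shock response, are replaced by alanine. Each mouse gave 1 library of bulk RNA from cells enriched with DX5 beads and sorted as CD49b+, CD3e-. The mutation is not described as limited to NK cells, and the labels used here give no age, sex or strain.

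Pro-survival BCL2 proteins hold the effectors BAX and BAK in check, and when they fail the effectors open the outer mitochondrial membrane and release cytochrome c, which starts the caspase cascade. BH3-only proteins carry stress signals to this switch by occupying the groove of the pro-survival proteins or by activating the effectors. Interleukin 15 keeps resting NK cells alive, and MCL1 and BCL2 on one side and BIM, the product of Bcl2l11, on the other are the members best known for setting NK cell survival.

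Library totals were 53845572 to 72736406 counts for the WT mice and 43189163 to 47248039 counts for the S303/7A mice. The NK marker genes summed to between 18906 and 22142 CPM (counts rescaled to a fixed library total) in every library, against 129 to 206 CPM for T cell and 29.3 to 178 CPM for B cell markers. Of the 9 NK markers 5 folds lay above 0 and 4 below, and 1 was called (adjusted p under 0.05 in edgeR). Without overlap, Klrb1c was at 2256 to 2663 CPM in WT and 1640 to 1755 in S303/7A. Ncr1 was at 2140 to 2226 and 2244 to 2530 CPM. Summed markers of several other cell types stood apart by genotype, while B cell, dendritic cell and plasma cell sums overlapped. Basophil markers summed to 416 to 849 CPM in WT and 255 to 356 in S303/7A, and platelet markers to 219 to 244 and 100.03 to 145 CPM, with all 8 folds of each list below 0. Of these, 1 basophil marker and 0 platelet markers were called. Neutrophil, monocyte and macrophage, and erythroid sums were also lower in S303/7A without overlap, but their tested genes were split, with 2 folds above 0 and 3 below, 3 above and 4 below, and 2 above and 4 below. Most of each of these sums came from a single gene (Cxcr2, Ccr2 and Car1). T cell sums were higher in S303/7A, with 7 folds above 0 and 1, that of Trac, below. The part of these cells in the values of the BCL2 family was not tested, and in bulk RNA fewer cells of a type and less RNA per cell cannot be told apart. Hsf1 itself was measured at 83.2, 104 and 108 CPM in WT and at 67.0, 42.2 and 76.9 CPM in S303/7A, with a log2 fold of -0.67 ± 0.22 (SE, edgeR adjusted p = 0.386). A change of codons is not read out by a transcript count, so this does not check the labels.

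No BCL2 family gene was called different between the genotypes. All 10 passed the filter on low counts, and 0 were called, where called means an adjusted p under 0.05 in edgeR's quasi-likelihood test over 16480 genes. The same rule called 0.364% of all tested genes (0.133% higher and 0.231% lower in S303/7A), so that 0 of 10 is near the background. At an unadjusted p under 0.05 edgeR, DESeq2 and limma-voom each gave 0 of 10, beside 9.68% of all tested genes in edgeR. The CPM ranges of the genotypes overlapped for every member, while they did not overlap for 16.0% of tested genes. Of the 10 log2 folds of S303/7A over WT, 6 lay above 0 and 4 lay below, and their median was 0.03 against 0.01 for all tested genes. Adjusted p values ran from 0.895 for Bax to 0.994 for Mcl1.

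How large a difference these libraries could still hide varied from gene to gene. For 7 of the 10 (Bcl2, Mcl1, Bcl2l1, Bax, Bcl2l11, Bid and Bad) the 95% interval of the log2 fold lay between -0.37 and 0.36, inside a 1.5-fold difference in either direction. The intervals of Bak1, Bbc3 and Pmaip1 reached past 1.5-fold in at least 1 direction, so a difference of that size is not excluded for them.

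**Figure D1:**
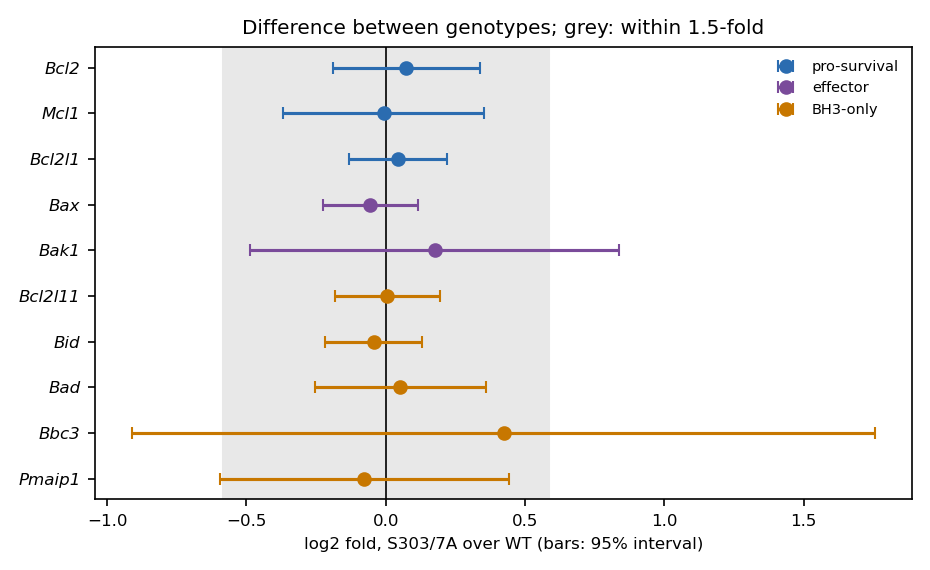
Log2 fold of S303/7A over WT for each BCL2 family gene, with points for the fitted value and bars for the 95% interval, coloured by role. The grey band marks 1.5-fold in either direction. Every bar crosses 0, and those of Bak1, Bbc3 and Pmaip1 leave the band.

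The means of the 3 pro-survival genes were close in both genotypes. Bcl2, the founding member of the family (chromosome 1, 106538178 to 106714274, GRCm38, minus strand), was at 336, 345 and 296 CPM for WT 1, 2 and 3 and at 387, 294 and 348 CPM in S303/7A 5, 6 and 7. The highest and the lowest Bcl2 value both belonged to S303/7A libraries, on either side of all 3 WT values. Its log2 fold was 0.07 ± 0.11 (SE), with a 95% interval from -0.19 to 0.34 (edgeR adjusted p = 0.911). In linear terms the interval ran from 0.877-fold to 1.26-fold.

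Mcl1 (chromosome 3, 95658788 to 95663176, plus strand) encodes a short-lived pro-survival protein that NK cells cannot do without. It was at 57.5, 48.5 and 66.8 CPM in WT and at 54.9, 50.4 and 66.6 CPM in S303/7A, so that WT 3 and S303/7A 7 were the high libraries and WT 2 and S303/7A 6 the low ones. The means were 57.6 ± 9.16 and 57.3 ± 8.38 CPM (SD, n = 3), and the log2 fold was -0.01 ± 0.15 (SE), with an interval from -0.37 to 0.35.

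Bcl2l1 (chromosome 2, 152780668 to 152831728, minus strand) encodes BCL-XL, which guards platelets and activated lymphocytes. It was at 143, 142 and 127 CPM in WT and at 140.4, 138 and 147 CPM in S303/7A. WT 3 was the low library and the other 5 lay close together. The log2 fold was 0.04 ± 0.07 (SE), with an interval from -0.13 to 0.22. Summed per exon length, the 3 pro-survival genes reached 265 ± 11.7 TPM (counts per exon length, rescaled to a fixed library sum) in WT and 269 ± 24.2 TPM in S303/7A (SD, n = 3).

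**Figure D2:**
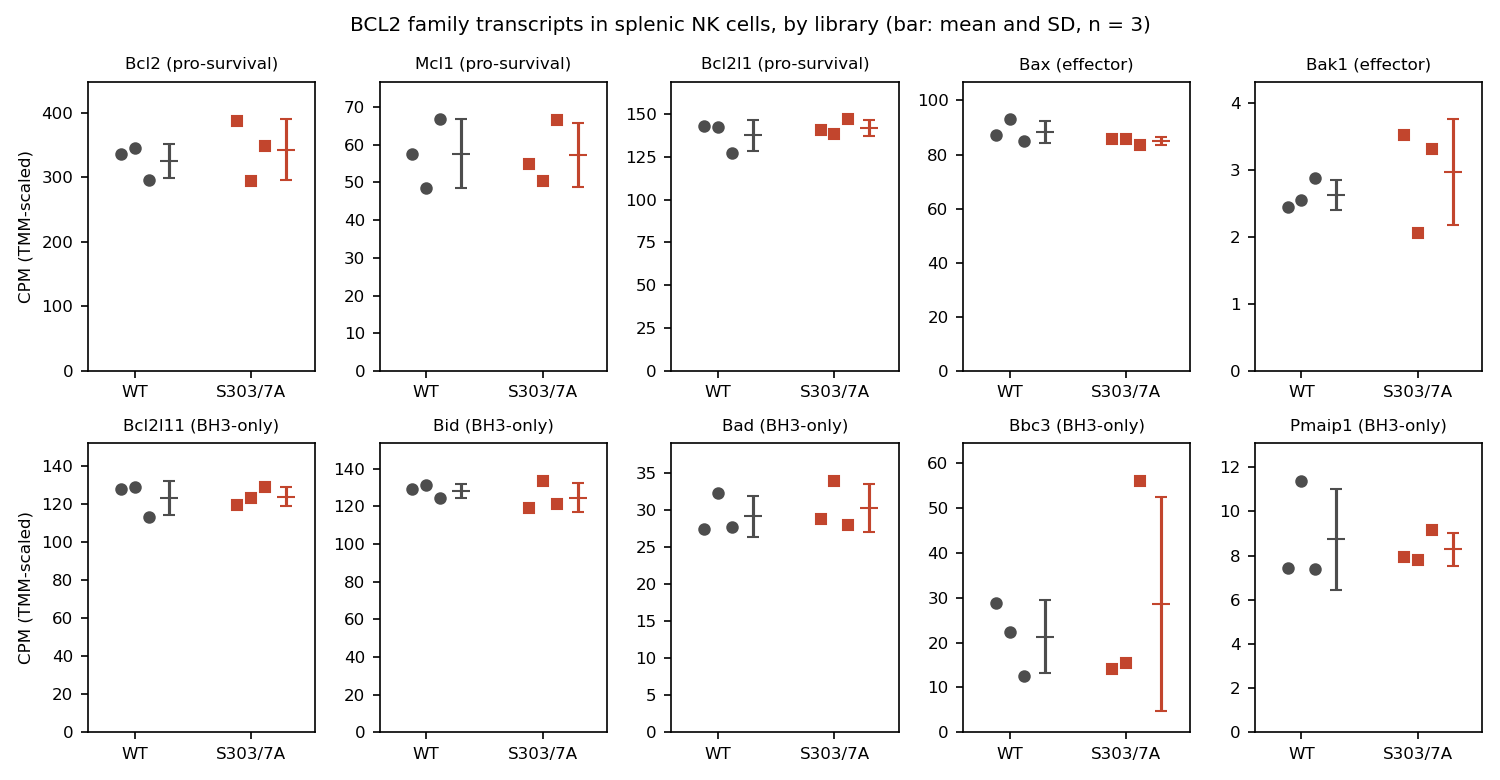
TMM-scaled CPM of each BCL2 family gene in every library, with circles for WT and squares for S303/7A and a bar for the mean and SD (n = 3). Libraries within a genotype are in the order of their numbers. The genotypes overlap in all 10 panels, and Bbc3 is the panel in which 1 library, S303/7A 7 at 56.0 CPM, stands far above the rest.

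Of the effectors, Bax was the steadiest gene of the family and Bak1 the scarcest. Bax (chromosome 7, 45461697 to 45466898, minus strand) was at 87.1, 93.1 and 85.0 CPM in WT and at 85.9, 85.9 and 83.5 CPM in S303/7A. All 6 libraries lay within 1.11-fold of each other, and the log2 fold was -0.05 ± 0.07 (SE), with an interval from -0.23 to 0.12. The pooled SD of its log2 CPM within genotypes was 0.0506, with a smaller SD in only 2.09% of tested genes. The median over all tested genes was 0.260. That share is over genes of all levels, including those with few counts, and genes of like counts were not compared.

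Bak1 (chromosome 17, 27019810 to 27029009, minus strand) was counted only 89 to 212 times per library. It was at 2.44, 2.56 and 2.88 CPM in WT and at 3.52, 2.06 and 3.32 CPM in S303/7A. S303/7A 5 and 7 lay above all WT libraries and S303/7A 6 below them, which left the genotypes overlapping. The log2 fold was 0.18 ± 0.28 (SE), with an interval from -0.49 to 0.84. With 1 library left out it ran from 0.035 (without S303/7A 5) to 0.38 (without S303/7A 6), and it was 0.084 without S303/7A 7. Counting error alone gives an SD of 0.122 on the log2 scale at these counts, and the observed SD was 2.52 times that. Effector transcripts together came to 184 ± 10.0 TPM in WT and 174 ± 3.60 TPM in S303/7A (SD, n = 3), nearly all of it Bax.

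The BH3-only genes fell into steady and scattered ones. Bcl2l11 (chromosome 2, 128126038 to 128162547, plus strand) encodes BIM, the BH3-only protein that kills lymphocytes deprived of cytokine. It was at 128, 129 and 113 CPM in WT and at 119, 123 and 129 CPM in S303/7A. All S303/7A values fell inside the WT range, of which WT 3 was the low end. Means of 123 ± 8.93 and 124 ± 4.83 CPM (SD, n = 3) left a log2 fold of 0.01 ± 0.08 (SE), with an interval from -0.18 to 0.19.

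Bid (chromosome 6, 120891930 to 120916853, minus strand) encodes the protein that caspase 8 and granzyme B cleave to link death receptors and cytotoxic granules to mitochondria. It was at 129, 131 and 124 CPM in WT and at 119, 134 and 121 CPM in S303/7A. S303/7A 6 was the highest library and the other S303/7A libraries were the lowest, and the log2 fold was -0.04 ± 0.07 (SE), with an interval from -0.22 to 0.13. Its annotated exons share 628 bases, or 17.7% of their length, with Bcl2l13 on the opposite strand, a gene with 4615 to 7921 counts per library. No source used here states the strand setting of the counting, so reads in the shared bases are uncertain. Bcl2l13, itself of the family, had a log2 fold of -0.00018 with an interval from -0.19 to 0.19.

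Bad (chromosome 19, 6941861 to 6951899, plus strand) encodes a BH3-only protein that survival kinases hold inactive by phosphorylation. It was at 27.4, 32.3 and 27.7 CPM in WT and at 28.7, 33.9 and 27.96 CPM in S303/7A, so that WT 2 and S303/7A 6 were the high libraries of their groups. The log2 fold was 0.05 ± 0.13 (SE), with an interval from -0.25 to 0.36. Bad shares 524 exonic bases, 20.5% of its length, with Gpr137 on the opposite strand (463 to 990 counts per library). Gpr137 had a log2 fold of -0.35 ± 0.14 (SE, edgeR adjusted p = 0.496).

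HSF1 binds heat shock elements, which are built from GAA units in alternating orientation, so the promoters of the family were read for a pair of such units (GAANNTTC or TTCNNGAA, each of which reads the same on both strands). RefSeq promoter windows on GRCm38.p6, cut to the 250 bases before the start, matched 9 of the 10 genes by symbol with 15 windows. Bad was the 1 member with a match, in 1 of its 2 windows, and 12.84% of all 32851 windows of that length held one. The match begins 30 bases before the start of Bad. In Hspa1b, a stress-inducible HSP70 gene and a textbook target of HSF1 shown for comparison, it begins 104 bases before the start. Bcl2, the pro-survival gene with the highest mean level per length, had no match. The windows are chr19:6941611-6941860 (plus strand) for Bad, chr17:34959239-34959488 (minus strand) for Hspa1b and chr1:106714291-106714540 (minus strand) for Bcl2. They run 5′ to 3′ toward the start, with the matched bases in capitals:
Bad: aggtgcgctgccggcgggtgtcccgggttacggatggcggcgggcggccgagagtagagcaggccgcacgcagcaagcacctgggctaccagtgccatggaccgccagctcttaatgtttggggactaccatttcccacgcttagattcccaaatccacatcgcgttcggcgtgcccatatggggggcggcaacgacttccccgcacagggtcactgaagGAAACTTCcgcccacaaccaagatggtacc
Hspa1b: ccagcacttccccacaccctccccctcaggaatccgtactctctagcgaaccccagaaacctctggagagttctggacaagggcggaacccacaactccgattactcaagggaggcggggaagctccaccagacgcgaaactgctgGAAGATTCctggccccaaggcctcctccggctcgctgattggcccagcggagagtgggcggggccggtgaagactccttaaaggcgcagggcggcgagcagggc
Bcl2: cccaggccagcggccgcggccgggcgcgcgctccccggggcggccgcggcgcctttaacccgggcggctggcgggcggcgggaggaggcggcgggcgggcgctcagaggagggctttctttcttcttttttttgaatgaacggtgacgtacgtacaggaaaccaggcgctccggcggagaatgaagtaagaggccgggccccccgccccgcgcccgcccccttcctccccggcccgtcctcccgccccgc
A match is a run of letters and not a bound site, and the level of Bad did not differ between the genotypes beyond the spread between mice.

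Pmaip1 (chromosome 18, 66458533 to 66465565, plus strand) encodes NOXA, the BH3-only partner of MCL1, which p53 and stress signals induce. It was at 7.45, 11.4 and 7.40 CPM in WT and at 7.93, 7.79 and 9.14 CPM in S303/7A. WT 2 was the highest library, 1.54-fold above the lowest WT library. WT 2 was also the library in which 9 immediate early and handling stress genes summed highest, at 709 CPM against 298 to 324 CPM in the other 5, and their part in the Pmaip1 value was not tested. The 9 include Hspa1a and Hspa1b, and 8 of their folds lay below 0, with 0 called. Hspa1b was at 13.0, 89.3 and 10.9 CPM in WT and at 1.82, 3.02 and 2.08 CPM in S303/7A. The log2 fold of Pmaip1 was -0.08 ± 0.22 (SE), with an interval from -0.59 to 0.44, and it was 0.15 without WT 2.

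Bbc3 varied widely between mice of the same genotype. Bbc3 (chromosome 7, 16308393 to 16318205, plus strand) encodes PUMA, a BH3-only protein that binds all pro-survival members and is induced by p53. It was at 28.8, 22.3 and 12.6 CPM for WT 1, 2 and 3 and at 14.1, 15.4 and 56.0 CPM in S303/7A 5, 6 and 7. WT values spread 2.28-fold and S303/7A values 3.96-fold, with S303/7A 7 above every other library. The log2 fold was 0.42 ± 0.57 (SE), with an interval from -0.91 to 1.76 (edgeR adjusted p = 0.896). Without S303/7A 7 it was -0.53, so the direction rested on that library.

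The spread of Bbc3 between mice was among the wider ones of all tested genes. Bbc3 had 606 to 2616 counts per library, for which counting alone gives an SD of 0.0456 on the log2 scale, and the pooled SD within genotypes was 0.896, or 19.7 times as large. Among tested genes of all levels, 87.0% had a smaller SD, and genes of like counts were not compared. The libraries were ordered nearly alike on the second principal component of all tested genes, which held 24.1% of the variance and to which Bbc3 itself contributes. S303/7A 7, WT 1 and WT 2 were at -52.2, -31.5 and -18.0 on it and had the 3 highest Bbc3 values, and S303/7A 5 and 6 and WT 3 were at 12.8, 38.8 and 50.1. The same 3 libraries were also the highest for Bcl2l1 and Bcl2l11, though all 6 libraries lay within 1.16-fold and 1.14-fold for these genes. Over the 6 libraries Pearson's r with the component was -0.92 for Bbc3, -0.87 for Bcl2l1 and -0.85 for Bcl2l11. For the other members r ran from -0.56 for Bcl2 to 0.29 for Bad, with -0.10 for Mcl1, -0.12 for Bax and 0.13 for Bid. The order was thus not shared by the family as a whole. These r values are a description of libraries that share depth and cell makeup.

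Eomes encodes a T-box factor needed for NK cell maturation and was added after its values were seen. It was at 476, 316 and 148 CPM in WT and at 180.5, 140.04 and 717 CPM in S303/7A, with the same 3 libraries highest as for Bbc3. The p53 gene Trp53 spread far less, at 160 to 169 CPM in WT and 149.96 to 162 CPM in S303/7A. Cdkn1a, another textbook target of p53 and also chosen after its values were seen, was at 5.01 to 5.53 CPM in WT and 6.10 to 8.76 CPM in S303/7A, with its highest value in S303/7A 7 and a log2 fold of 0.45 ± 0.20 (SE, edgeR adjusted p = 0.541). Mdm2, also of the p53 pathway, went otherwise. It was at 151, 137 and 173 CPM in WT and at 153, 168 and 147 CPM in S303/7A, where S303/7A 7 was the lowest. Its log2 fold was 0.02 ± 0.10 (SE). The part of p53 in the spread of Bbc3 was not tested.

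**Figure D3:**
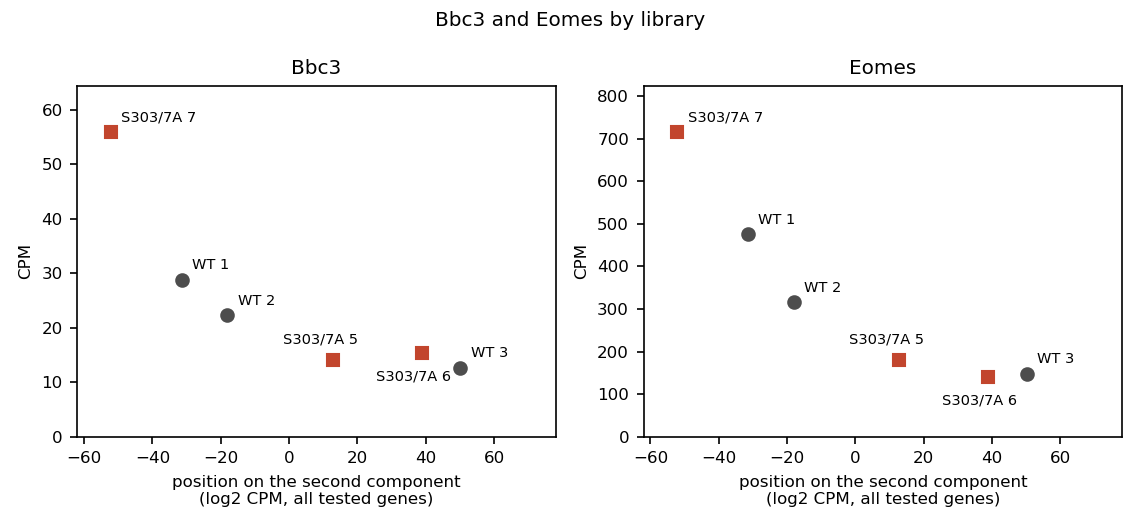
CPM of Bbc3 (left) and Eomes (right) in each library against the library's position on the second principal component of log2 CPM over all tested genes, with circles for WT and squares for S303/7A. In both panels S303/7A 7 (56.0 and 717 CPM) and WT 1 lie highest on the left, and WT 3, S303/7A 5 and S303/7A 6 lie low on the right.

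Levels can be set side by side between genes only per length, as TPM over annotated exons. On that scale Bax had the highest level of the family, at 167 to 191 TPM over the 6 libraries, above Bcl2 (101 to 135 TPM) in all of them. Bax shares 12.2% of its exonic bases with Gm45808 on the same strand. Bcl2 shares 6.09% with D630008O14Rik on the opposite strand. The effect of these shared bases on the levels was not tested. Bcl2 and Bid (107 to 119.6 TPM) overlapped and could not be ordered, since Bcl2 was above Bid in 4 of 6 libraries. Bcl2l1, at 87.6 to 101 TPM, lay below Bid in every library.

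A second tier followed. Mcl1 (45.8 to 61.8 TPM), Bcl2l11 (44.5 to 51.9), Bbc3 (18.8 to 83.2) and Bad (34.2 to 41.6) had ranges that overlapped from each gene to the next in order of mean TPM. Pmaip1, at 8.57 to 13.5 TPM, lay below Bad in all 6 libraries, and Bak1, at 2.69 to 4.67 TPM, below Pmaip1. The annotated exons include isoforms that NK cells may not use, so levels of genes with long alternative exons may be understated. Bid, Bad and Bak1 share 17.7%, 20.5% and 25.5% of their exonic bases with a gene on the opposite strand. How reads in shared bases were counted is not stated, so these levels are uncertain as well. Together the 5 BH3-only genes held 245 ± 24.1 TPM in WT and 249 ± 34.0 TPM in S303/7A (SD, n = 3).

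**Figure D4:**
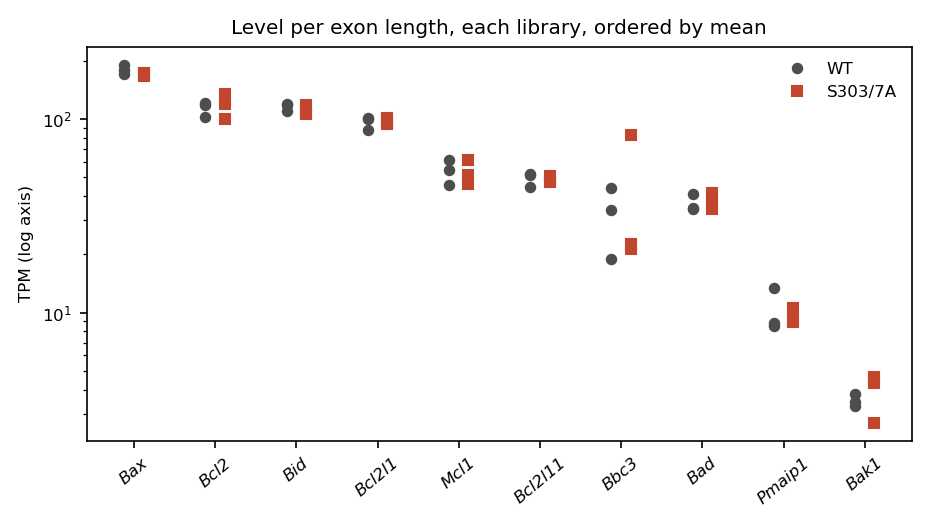
Level per exon length (TPM, log axis) of the BCL2 family genes in each library, ordered by the mean over the 6 libraries, with circles for WT and squares for S303/7A. Bax lies at the top, Pmaip1 and Bak1 at the bottom, and Bbc3 has the widest range, from 18.8 to 83.2 TPM.

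The balance between a pro-survival gene and a BH3-only partner that its protein is known to bind was taken as the difference of their log2(CPM + 0.5) in each library, for 3 pairs. For Bcl2 and Bcl2l11 it was 1.39, 1.42 and 1.39 in WT and 1.69, 1.25 and 1.43 in S303/7A. The 3 WT values had an SD of 0.0169, and the S303/7A values were spread on both sides of them (SD 0.223). The genotype difference was 0.06 ± 0.13 (SE), with p = 0.7 in an exact two-sided permutation test (adjusted p = 1 over the 3 pairs), where 3 against 3 mice cannot go below 0.1.

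For Mcl1 and Pmaip1 the difference was 2.87, 2.04 and 3.09 in WT and 2.72, 2.62 and 2.80 in S303/7A. WT 2, with its high Pmaip1 and low Mcl1, was the low library, and the genotype difference was 0.04 ± 0.32 (SE, exact permutation p = 1). For Bcl2l1 and Bad the means were 2.22 ± 0.127 and 2.22 ± 0.187 (SD, n = 3), a difference of -0.0046 ± 0.13 (SE, exact permutation p = 1). None of the 3 balances differed between the genotypes beyond the spread between mice, and the genotypes overlapped in all 3.

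The genes whose log2 CPM followed a member most closely over the 6 libraries were read among 7390 genes with a mean log2 CPM of at least 4. For Bcl2 these were Nampt, the rate-limiting enzyme of NAD salvage (Pearson r = 0.98), Auh (0.98) and the G protein-coupled receptor gene Gpr132 (0.97). For Mcl1 they were Rmnd5a (0.997), Rhoq (0.992) and Trim56 (0.98), and for Bcl2l11 they were Asl, argininosuccinate lyase (0.99), Gnl1 (0.98) and Itfg1 (0.97). All of these are descriptions over 6 points from the same libraries, which share depth and cell makeup. They are the largest r picked from 7390 genes, and how many genes would reach such values by chance was not tested.

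Genes with an r above 0.95 numbered 5 for Bcl2, 7 for Mcl1 and 12 for Bcl2l11. The number that would pass by chance over 6 libraries was not worked out, so these counts are no evidence of a shared regulation. Bbc3, added after its values were seen, had 96 such genes, led by the ceramide kinase gene Cerk (r = 0.999), Bag1, a co-chaperone of HSP70 first found as a partner of BCL2 (0.99), and the adaptor gene Sh2b3 (0.99). Bag1 was at 35.1, 20.4 and 11.9 CPM in WT and at 13.0, 12.5 and 97.8 CPM in S303/7A. Its log2 fold was 0.87 (edgeR adjusted p = 0.829). S303/7A 7 was again the highest library and WT 1 the next.

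No gene near a family member was called either. Within 1 Mb of the 10 genes lay 9 to 73 tested genes each, and 0 of them were called, against 0.364% of all tested genes. The nearest called gene to Bak1 was Rab44 at 2.09 Mb, the nearest to Bax was Gm5733 at 2.27 Mb, and the nearest to Bid was Vwf at 4.64 Mb. Bak1 shares 614 exonic bases, 25.5% of its length, with Ggnbp1 on the opposite strand, which had only 3 to 26 counts per library. A search of the annotated transcripts with coding transcripts of the members found no match to another gene of at least 95% identity over 100 bases, apart from genes that overlap a member.

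The rest of the death pathway was read from 6 further lists of 72 genes. Of their 67 tested genes 0 were called by edgeR, beside 0.364% of all tested genes, and 6 (8.96%) had an unadjusted p under 0.05, beside 9.68%. DESeq2 called 1 of them, Bmf, where it called 2.17% of all genes it gave an adjusted p. The median log2 fold of the 67 was 0.02, with 37 above 0 and 30 below. The CPM ranges of the genotypes did not overlap for 10 of the 67 (14.9%), beside 16.0% of all tested genes.

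Among 9 tested genes of the wider BCL2 family (median log2 fold -0.05), the largest fitted difference was that of Bmf, which encodes a BH3-only protein tied to the cytoskeleton. Bmf was at 2.58, 4.36 and 1.17 CPM in WT and at 4.67, 12.6 and 11.9 CPM in S303/7A. All S303/7A libraries lay above all WT libraries, though S303/7A 5 only just. The log2 fold was 1.85 ± 0.53 (SE), with an interval from 0.60 to 3.11 (adjusted p = 0.333 in edgeR and 0.00366 in DESeq2).

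Bcl2l2, which encodes the pro-survival protein BCL-W, was at 2.24, 2.48 and 2.69 CPM in WT and at 1.61, 1.02 and 0.835 CPM in S303/7A. The genotypes did not overlap, and the log2 fold was -1.10 ± 0.33 (SE, edgeR adjusted p = 0.346). Bcl2a1d, 1 of the near-identical mouse copies of the pro-survival gene A1 and uncertain for that reason, had a log2 fold of -0.54 ± 0.34 (SE). Bcl2a1b, another copy with more counts, had a log2 fold of -0.20 ± 0.27 (SE), with an interval from -0.82 to 0.43. Bcl2l10, Bcl2a1a, Bok, Hrk and Bcl2l14 did not pass the filter, with 0 to 37 counts each over the 6 libraries.

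Downstream of the mitochondria, 0 of 14 tested apoptosome and caspase genes were called (median log2 fold -0.03). Aifm1, which encodes apoptosis-inducing factor, was at 58.5 to 62.1 CPM in WT and 51.6 to 53.3 CPM in S303/7A, without overlap, and had a log2 fold of -0.20 ± 0.08 (SE). Casp6 was at 37.9 to 40.1 and 33.7 to 35.4 CPM, also without overlap, and Casp8, the initiator caspase of death receptors, had a log2 fold of 0.17 ± 0.08. Adjusted p values of these 3 genes were 0.483 to 0.591 in edgeR.

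Of 6 inhibitors of apoptosis 0 were called (median log2 fold 0.04). Birc5, survivin, which rises in dividing cells, was at 18.1, 15.1 and 14.3 CPM in WT and at 27.1, 28.3 and 13.5 CPM in S303/7A, with S303/7A 5 and 6 high and S303/7A 7 low. The 8 proliferation genes, of which Birc5 is 1, also summed highest in S303/7A 5 and 6 (481 and 494 CPM) and lowest in S303/7A 7 (345 CPM), and all 8 of their folds lay above 0. The part of dividing cells in the Birc5 value was not tested. Log2 folds were -0.16 ± 0.15 (SE) for Birc3 and 0.06 ± 0.07 for Birc6. Among 9 mitochondrial partners 0 were called (median 0.04), with 0.22 ± 0.11 for Opa1, the fusion protein of the inner membrane, -0.14 ± 0.10 for Dnm1l and 0.13 ± 0.12 for Vdac3.

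Genes that act on the family gave no calls either. Of 14 transcription factor and p53 pathway genes 0 were called (median log2 fold 0.04), and the lowest unadjusted p was that of Nfkb1, at 134 to 151 CPM in WT and 112 to 128 CPM in S303/7A. Its log2 fold was -0.20 ± 0.09 (SE, edgeR adjusted p = 0.520). Myc (0.24 ± 0.12) and E2f1 (0.70 ± 0.39, at 0.791 to 2.85 CPM) did not pass. Of 15 kinases, adaptors and ubiquitin enzymes 0 were called (median 0.05).

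The lowest p of all 67 genes was that of Gsk3b, the kinase that marks MCL1 for destruction. Gsk3b was at 117, 114 and 111 CPM in WT and at 146, 139.5 and 144 CPM in S303/7A, tight within each genotype and without overlap. Its log2 fold was 0.33 ± 0.06 (SE), with an interval from 0.17 to 0.48 (edgeR adjusted p = 0.135), which did not pass. Akt2 (0.42 ± 0.14), of the survival kinase family that phosphorylates BAD, and Fbxw7 (0.55 ± 0.22), a ubiquitin ligase subunit that recognises MCL1, did not pass either (adjusted p 0.423 and 0.483).

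**Figure D5:**
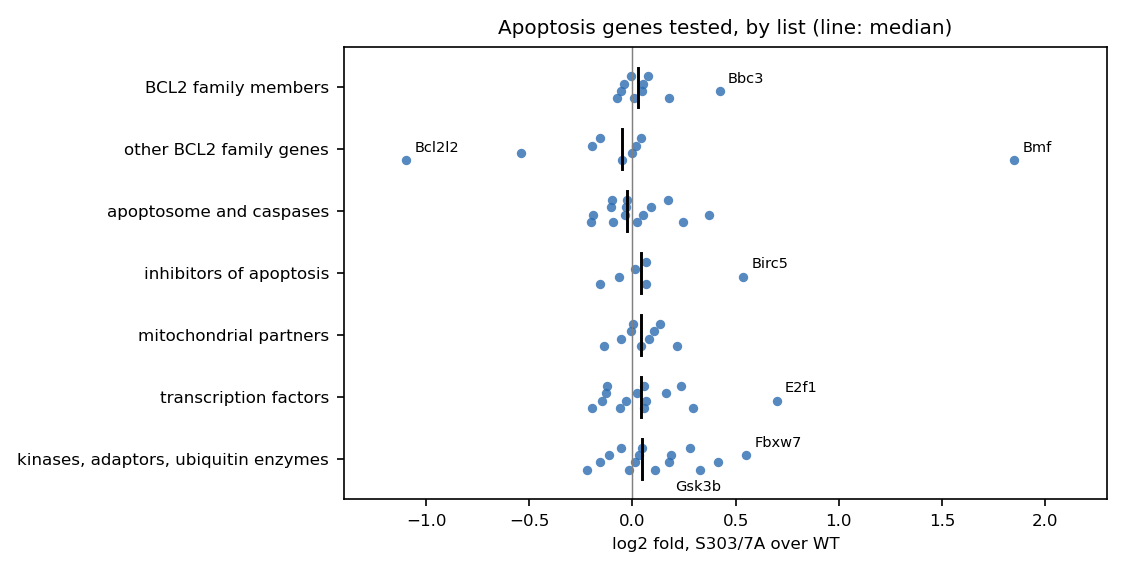
Log2 fold of S303/7A over WT for each tested gene of the BCL2 family list and of 6 further apoptosis lists, with a vertical line at each list's median. Medians lie between -0.05 and 0.05, and Bmf (1.85) and Bcl2l2 (-1.10) are the points farthest from 0. No gene shown was called by edgeR.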

How the data were processed

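Bulk RNA-seq libraries of splenic NK cells (SMART-seq HT kit, per the labels' protocols) came from 3 WT and 3 S303/7A mice. The submitters' processing notes name DESeq2, featureCounts, STAR and Trimmomatic and the build GRCm38 (mm10), without versions or a strand setting. The authors deposited raw counts per gene name, without normalization, and a table of normalized signal. The deposited signal was the raw count divided by 1 factor per library (0.817 to 1.40): multiplying back gave the whole count within 0.01 for 100% of values, so the recovered reads are the raw counts, on which the test below called 60 genes. Rows that name no gene numbered 0.

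Counts were fitted in R 4.3.3 with edgeR 4.0.16 (filterByExpr with minimum count 10 and minimum total 15, TMM, quasi-likelihood test, not robust, Benjamini-Hochberg over 16480 genes, threshold 0.05). SEs are Wald-type, and intervals are at 95%. Tested on simulated counts for this comparison (15866 genes), it found 8 of the 50 genes set to a 1.5-fold change and 28 of the 50 set to 2-fold, made 4 false calls, and 95.4% of intervals held the true value. Each simulated gene was drawn independently with the fitted dispersion, so variation that genes share between real libraries is not covered. The changed genes were all taken from levels above that of Bak1 (mean log2 CPM 1.48). CPM use the TMM scaling. TPM use exon union lengths from GENCODE M21, which cover at least 99.2% of counts. Same-genotype library pairs differed by a chi-square per gene of 30.5 to 98.8, so none was a repeat deposit. DESeq2 1.42.0, limma 3.58.1, other scalings, no filter, thinning to the smallest total (43189163 counts) and leaving out each library were alternatives. The family members, the lists and the tests were chosen with earlier results of these data known. Named genes are all members, Hsf1, called list genes, the 3 smallest p per list and the 3 genes most like Bcl2, Mcl1 and Bcl2l11; others were chosen after their values were seen. Counting SDs cover counting error only, since PCR copies were not marked by molecular identifiers.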

Additional observations from a re-analysis of the deposited data

How the results depend on the processing

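In 12 alternatives (2 other scalings, no filter, DESeq2, limma-voom, thinning and each of 6 libraries left out) 0 of 10 members were called, and the lowest adjusted p of any member was 0.619. The 60 genes called overall became 171 without the filter, 434 in DESeq2 and 38 in limma-voom, and 5 (without WT 2) to 57 (without S303/7A 6, of which 24 were shared and 38 were higher, against 22 higher of 60) with 1 library left out. In the other apoptosis lists DESeq2 called 1 gene, Bmf. Of 120 fits of a member 12 changed sign, all of folds that did not pass. With 1 library left out, log2 folds ran from -0.022 (without S303/7A 5) to 0.17 for Bcl2, from -0.13 to 0.11 (without WT 3) for Mcl1, from -0.0096 (without WT 3) to 0.071 for Bcl2l1 and from -0.052 (without WT 3) to 0.032 for Bcl2l11. They ran from -0.039 (without S303/7A 6) to 0.12 for Bad, from -0.53 (without S303/7A 7) to 0.75 for Bbc3 and from -0.18 to 0.15 (without WT 2) for Pmaip1. Those of Bak1 ran from 0.035 (without S303/7A 5) to 0.38 (without S303/7A 6), and those of Bax and Bid stayed below 0. Bcl2l11 was at -0.022 with library totals and at -0.0016 without the filter. The balance of Bcl2 to Bcl2l11 ran from -0.058 to 0.16, that of Mcl1 to Pmaip1 from -0.27 (without WT 2) to 0.26 and that of Bcl2l1 to Bad from -0.082 to 0.099. The cause of these shifts was not tested. No paired analysis was possible because the genotypes share no replicate numbers. Bak1 had the fewest counts of the 10 members, 89 to 212 per library, and thinning left its log2 fold at 0.17 against 0.18.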
